A study of Homo sapiens with 4 samples.

Results

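The genes described here build the vesicle route between the endoplasmic reticulum (ER) and the Golgi. They are 50 genes that were listed by role and not by any measured value: the COPII coat, the COPI coat with its ARF GTPases, the cargo receptors, the COG tethering complex, and the Golgi matrix proteins. The list was drawn up with earlier results of these data known. Of these 50 genes, 47 had a probe set that the array annotation assigns to that gene alone, out of 19775 such genes on the array. A gene was read from its brightest such probe set and counted as measured when its mean over the arrays exceeded an intensity of 93.9, the midpoint of the probe sets' means, which 46 of the 47 did, against 12446 of all 19775 genes. COPG2, a second form of a COPI subunit, lay below this filter, at 83.3 on the control array and 91.5, 107 and 95.3 at 8, 16 and 24 h. TMED7 was left out because its probe sets are shared with a second gene, and KDELR2 and USO1 were not analysed here.

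The cells were MM.1S, an established human multiple myeloma line grown in culture. They were treated with 250 nM MLN4924, an inhibitor of the NEDD8-activating enzyme, for 8, 16 or 24 h, or were controls, given the vehicle DMSO per the treatment protocol. No genetic change separates the groups, and no culture time is given for the controls. Each of the 4 groups was 1 Affymetrix array of 54675 probe sets.

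Newly made secretory proteins leave the ER in vesicles coated with COPII. SAR1 starts this coat by recruiting the inner layer of SEC23 and SEC24, and SEC13 and SEC31 form the outer cage. COPI vesicles, started by ARF GTPases, carry escaped ER proteins and Golgi enzymes backwards. Receptors in the membrane load the cargo, and the COG complex and the golgins catch vesicles at the Golgi. Plasma cells, from which myeloma arises, secrete antibody in bulk and depend heavily on this route.

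With 1 array per group no test could be run, the number of arrays limits the precision, and every difference below is that of 1 array from another, with culture, array and treatment not told apart. All 3 differences from control share the same control array. A partial guide to technical spread was the pooled SD between probe sets of the same gene over 5719 genes, which came to 0.16, 0.19 and 0.18 (log2) for the 8, 16 and 24 h differences. It leaves out the spread between cultures. Median intensities of the arrays ran between 92.2 and 95.4. Of the plasma cell markers, 8 of 8 were measured, and together they summed to 43210 in control cells, with 37955, 42821 and 43275 after 8, 16 and 24 h. These markers thus also had their lowest sum on the 8 h array, but not all of them followed it. XBP1, IRF4, CD38, TNFRSF17 and SLAMF7 were lowest at 8 h. PRDM1 was above the control then (0.26), and SDC1 and MZB1 were lowest at 24 h. The part that the low sum plays in the results was not tested. Markers of stromal fibroblasts (1 of 5), T and NK cells (1 of 4) and myeloid cells (0 of 4) were mostly below the filter, with summed intensities over the arrays of 496 to 514, 259 to 308 and 196 to 223. Of 3 erythroid markers HBB was the 1 measured, at 995 to 1219, and the list summed to between 1094 and 1300. Ratios of 3' to 5' probe sets, a sign of RNA quality, stood between 0.23 and 0.28 for GAPDH and between 0.96 and 1.14 for ACTB (log2).

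At 8 h most of the transport genes stood slightly below the control. Of 46 measured members, 36 (78.3%) were below 0, against 48.3% of all measured genes, and their median difference was -0.12 (log2), against 0.0071 over all measured genes. The differences were small in size: 1 member, SEC24D, was at least 1.5-fold lower, where 1.12% of all measured genes were, and 0 were at least 1.5-fold higher, where 0.731% were. More members lay below the control by over 1 SD between probe sets, 20 of 46, against 18.8% of measured genes.

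By 16 h the shortfall was smaller, and by 24 h it was near 0. At 16 h 29 of 46 members were below 0, against 45.7% of measured genes, with a median of -0.076 against 0.026, and 14 were lower by over 1 SD, against 20.1%. COG5 was the 1 member at least 1.5-fold lower at 16 h, where 2.73% of measured genes were, and 0 members were 1.5-fold higher, where 2.24% were. At 24 h 26 of 46 were below 0, against 47.4%, with a median of -0.014 against 0.016, and 8 were lower by over 1 SD, against 21.4%. At that time 0 members were 1.5-fold from the control either way, where 2.85% of measured genes were higher and 2.31% lower.

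**Figure D1:**
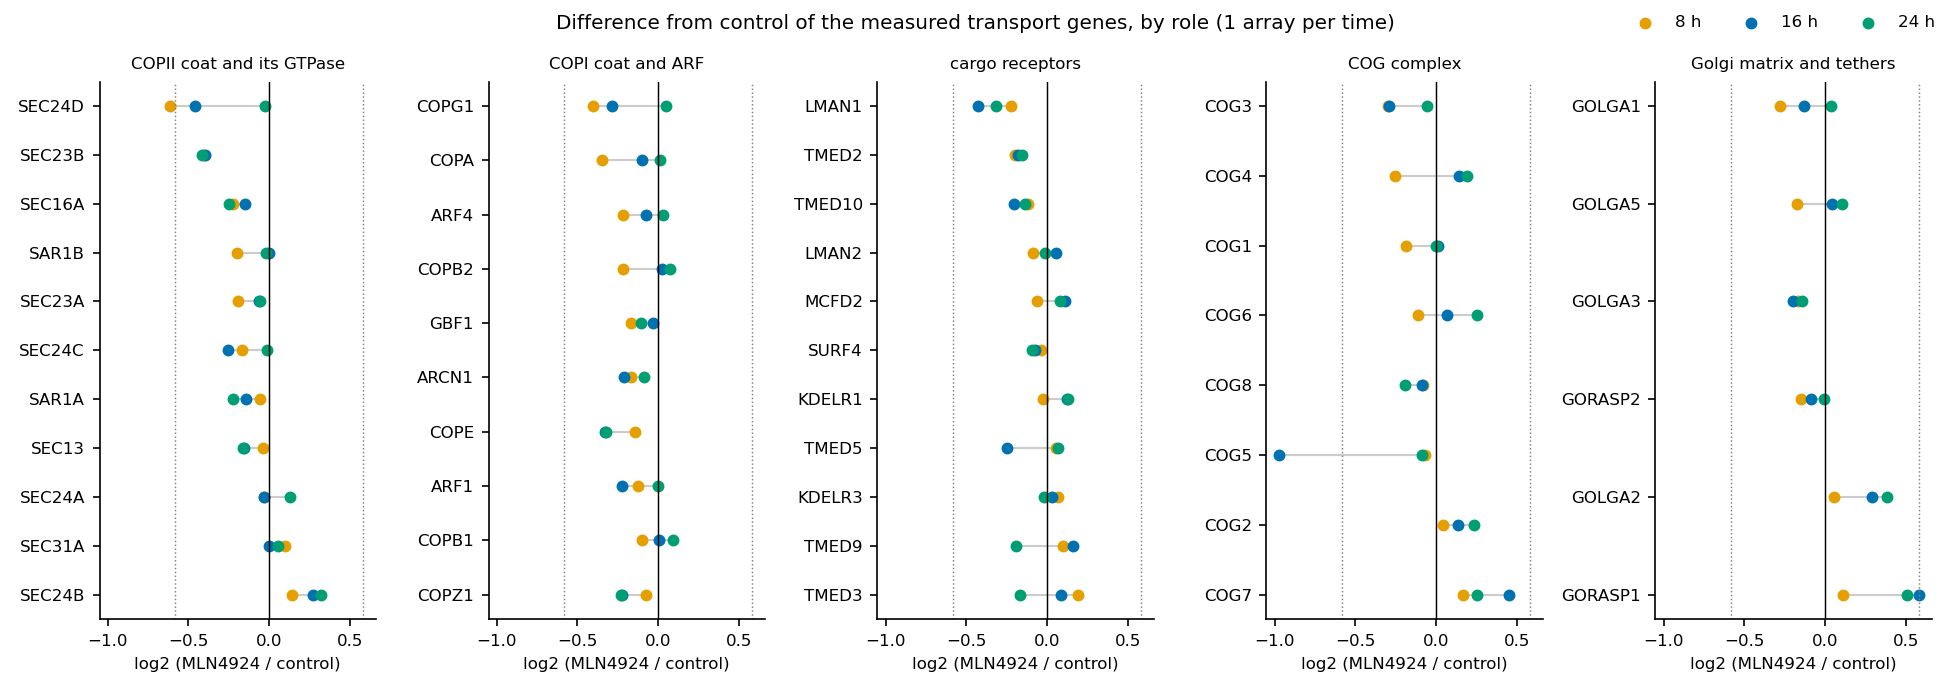
Each row is a measured gene, in 1 panel per role, and the points give its log2 difference from the control array at 8, 16 and 24 h, with 1 array per time. Dotted lines mark 1.5-fold; most 8 h points of the COPII and COPI panels lie left of 0, and COG5 at 16 h stands furthest left at -0.97.

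The array on which each gene had its lowest or highest value was also counted. The 8 h array held the lowest of the 4 values for 21 of 46 members (45.7%), against 25.7% of measured genes. The control array held the highest value for 22 members (47.8%), against 25.3%. This restates that these 22 members were below the control at all 3 times and is not a separate result. The 24 h array held the highest value for 15 members (32.6%), against 25%. From 8 h to 24 h, 31 of 46 members (67.4%) were higher on the later array, against 51.0% of measured genes. This count and that of the lowest values rest on the same 8 h array as the 8 h difference from control. They are not independent of it.

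**Figure D2:**
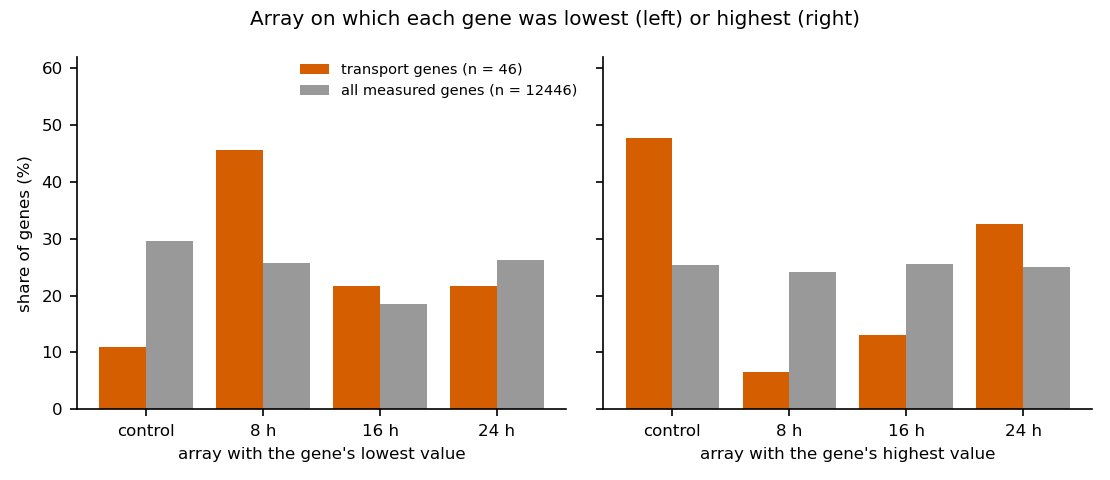
Bars give the share of genes (%) whose lowest (left) or highest (right) of the 4 values fell on each array, for the 46 transport genes and for the 12446 measured genes. The transport genes had 45.7% of their lowest values on the 8 h array and 47.8% of their highest on the control array.

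Split by step, members were mostly higher on each later array. From 8 h to 16 h 17 of 46 were below 0, against 47.1% of measured genes, and 17 of 46 were below 0 from 16 h to 24 h, against 54.5%. COG5 alone passed 1.5-fold in either step. It was lower in the first, where 1.61% of measured genes were 1.5-fold lower and 1.86% higher, and higher in the second, where 0.739% were higher and 0.0884% lower. Both steps share the 16 h array, so COG5's low value there enters both. The first step also rests on the same 8 h array as the 8 h difference from control.

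The COPII coat was lower at 8 and 16 h, with 9 and 10 of its 11 measured genes below 0 and medians of -0.17 and -0.14 (log2), while at 24 h 8 of 11 were below 0 with a median of -0.028. SEC24D, a cargo-binding subunit of the inner coat, had intensities of 1082 in control cells, with 706, 787 and 1061 after 8, 16 and 24 h. It was thus low on the 8 and 16 h arrays and near the control at 24 h, and its difference at 8 h, -0.62 (1.53-fold lower), was the largest among the members at that time. Its 2 other probe sets lay below the filter and stood at -0.69 and -0.31 at 8 h, -0.89 and -0.13 at 16 h, and -0.47 and 0.036 at 24 h, so that 1 of them was still low at 24 h. SEC23B, which binds SEC24 in the same layer, had 2338 in control cells, with 1772, 1779 and 1755 after 8, 16 and 24 h. It was low on all 3 treated arrays, at -0.40, -0.39 and -0.41.

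SEC23B was low in each of its measured probe sets. The other 2 measured ones stood at -0.40 and -0.47 at 8 h, -0.32 and -0.58 at 16 h, and -0.21 and -0.49 at 24 h. All 9 readings of this gene were thus below the control, but they share 1 control array and are not independent. Lower by over 1 SD between probe sets at all 3 times were 2 of 46 members (4.35%), SEC23B and LMAN1, against 6.11% of measured genes. The SEC23B paralogue SEC23A was at 497 on the control array and 435, 475 and 478 at 8, 16 and 24 h. Its difference was -0.19 at 8 h and -0.058 at 24 h. A dimmer SEC23A probe set stood at 0.55 at 16 h and 0.25 at 24 h.

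Within the SEC24 family the 4 genes did not share a course. SEC24C, another cargo adaptor, stood at -0.17, -0.25 and -0.012 over the 3 times, while SEC24A stood at -0.035, -0.032 and 0.13, with its dimmer probe sets at 0.14 and 0.092 at 16 h. SEC24B had 808 in control cells, with 892, 974 and 1012 after 8, 16 and 24 h. It was the highest COPII gene at each time (0.14, 0.27 and 0.32), with 1 probe set to rest on.

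The remaining COPII genes were all under 1.5-fold from the control. SEC16A, the scaffold of ER exit sites, stood at -0.22, -0.15 and -0.25, and SEC13 and SEC31A, of the outer cage, at -0.038 and 0.098 at 8 h at -0.15 and -0.0029 at 16 h, and at -0.16 and 0.053 at 24 h. SAR1A, the GTPase that starts the coat, was at -0.058, -0.14 and -0.22, with its lowest value at 24 h, and its dimmest probe set was at 0.070 at 8 h. Its near copy SAR1B had its lowest value at 8 h (-0.20) and stood at -0.0029 and -0.019 later, with its 5 measured probe sets between -0.15 and 0.18 at 24 h. SAR1A and SAR1B are close paralogues, and cross-hybridisation between their probes was not tested.

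**Figure D3:**
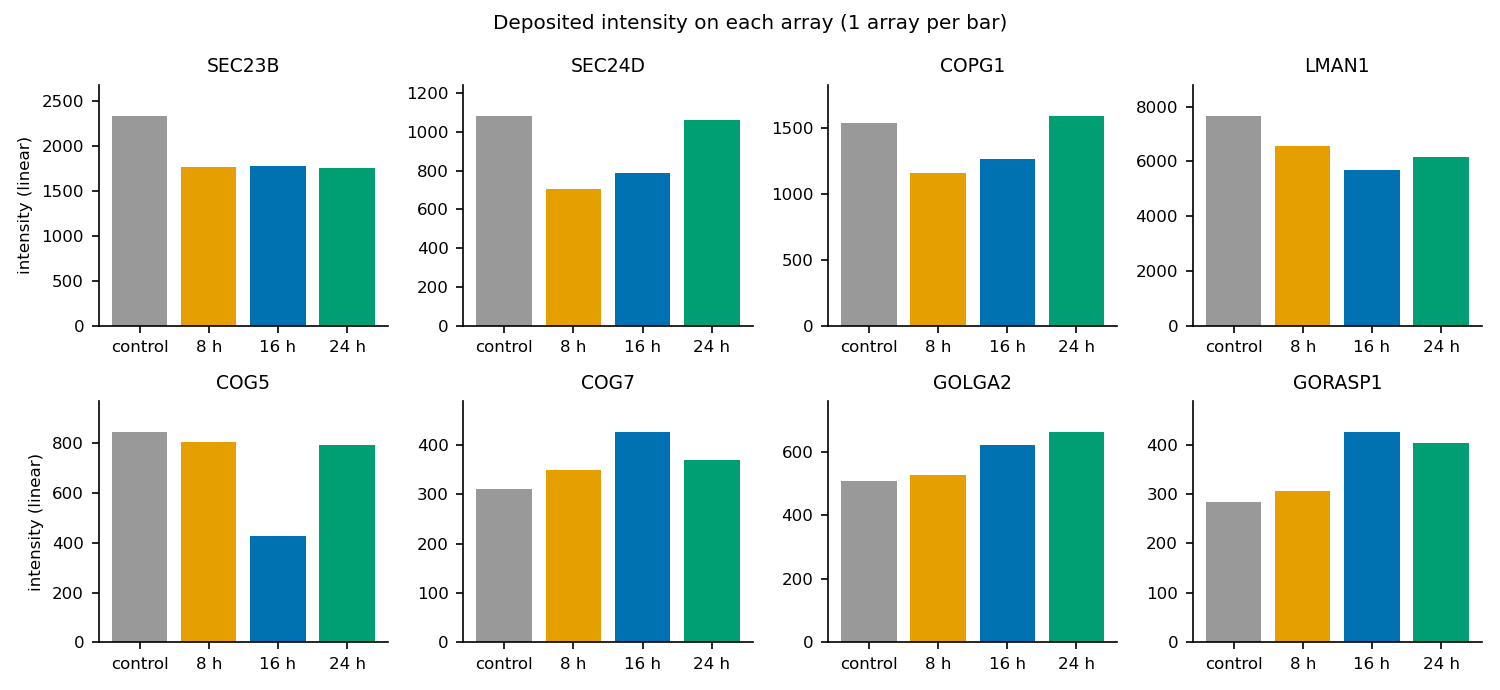
Bars give the deposited intensity (linear scale, from 0) on the control, 8, 16 and 24 h arrays for 8 genes, with 1 array per bar. SEC23B lies between 1755 and 1779 on the treated arrays, against 2338 on the control array, SEC24D and COPG1 are lowest at 8 h, COG5 stands at 429 at 16 h alone, and GOLGA2 and GORASP1 are highest at 16 or 24 h.

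All 10 measured genes of the COPI coat and its GTPase switch were below the control at 8 h, with a median of -0.17. At 16 h 8 of 10 were below it (median -0.16), and at 24 h 5 of 10 (median 0.0052). The 7 measured coat subunits alone had their lowest median at 16 h, with -0.17, -0.21 and 0.010 over the 3 times. Of these 7, the numbers below 0 were 7, 5 and 3. COPG1, the gamma subunit, had 1538 in control cells, with 1161, 1263 and 1593 after 8, 16 and 24 h, so that a difference of -0.41 at 8 h was followed by 0.051 at 24 h. COPA, the alpha subunit, had the same shape, at 2471 in control cells, with 1938, 2303 and 2489 after 8, 16 and 24 h. Of its other measured probe sets, both much dimmer, the values at 8 h were 0.32 and 0.45, opposite in sign to the -0.35 of the bright one.

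COPB2, the beta prime subunit, followed COPA in shape, at 1997 in control cells, with 1718, 2027 and 2105 after 8, 16 and 24 h. COPB1, the beta subunit, stood closer to the control, at 3558, 3326, 3571 and 3786 over the same arrays (-0.097, 0.0050 and 0.090). A second COPB1 probe set was above the control at all 3 times (0.058, 0.15 and 0.21). ARF4, a GTPase of the early Golgi, stood at -0.22, -0.078 and 0.030, and its second probe set at -0.28, -0.29 and -0.060.

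Of the 7 measured coat subunits, 3 were lowest at 16 or 24 h. Over all measured genes 18.5% were lowest at 16 h and 26.2% at 24 h, so this count is not particular to the coat. COPE, the epsilon subunit, had 1725 in control cells, with 1562, 1370 and 1377 after 8, 16 and 24 h. Its difference of -0.33 at 24 h was the lowest of the COPI genes, although a dim second probe set was at -0.0043 then. COPZ1, the zeta subunit, had 1405, 1336, 1206 and 1198 over the same arrays, and its second probe set stood at -0.25, -0.23 and -0.25. ARCN1, the delta subunit and the third of them, was at -0.17, -0.21 and -0.085. GBF1, the exchange factor that loads ARF with GTP, was at -0.17, -0.034 and -0.10. ARF1 was read from 1 dim probe set (515 on the control array) at -0.13, -0.22 and -0.00010, since its 3 other probe sets are shared with a microRNA gene.

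**Figure D4:**
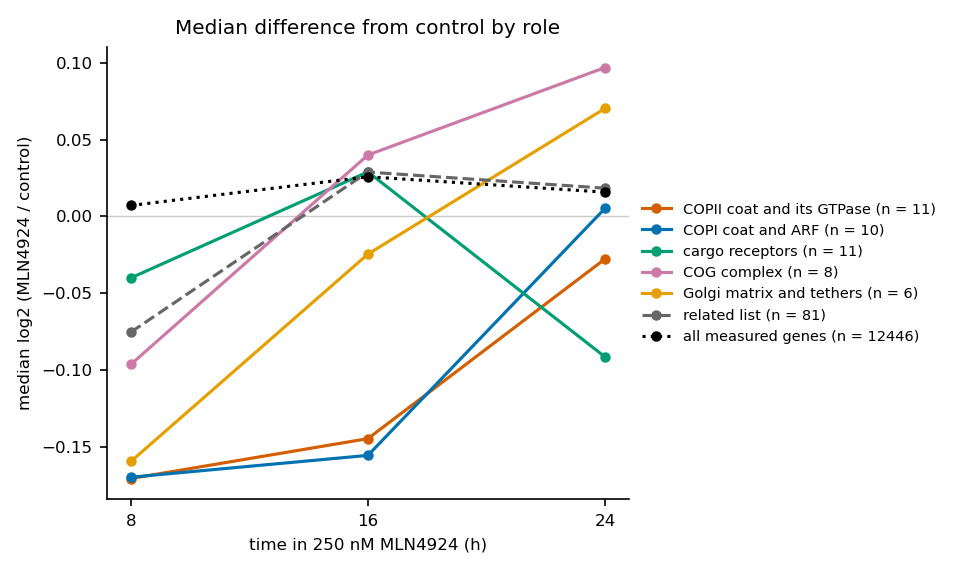
Lines join the median log2 difference from control of each role at 8, 16 and 24 h, beside the related transport list (dashed, 81 genes) and all 12446 measured genes (dotted). The COPII and COPI lines start at -0.17 and end at -0.028 and 0.0052, and the cargo receptors are the role with its lowest median at 24 h.

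The cargo receptors showed no common shift: 7 of 11 were below 0 at 8 h, 5 at 16 h and 8 at 24 h, with medians of -0.040, 0.029 and -0.091. LMAN1, the lectin (ERGIC-53) that takes glycoproteins out of the ER, was the lowest of them at each time. It had 7655 in control cells, with 6552, 5687 and 6142 after 8, 16 and 24 h, differences of -0.22, -0.43 and -0.32. Of 2 far dimmer probe sets, 1 stood at 0.22 at 8 h and the other at 0.17 at 16 h, so the gene rests on its bright probe set. MCFD2, which binds LMAN1 to carry clotting factors, was at -0.063, 0.11 and 0.083 (second probe set -0.090, -0.013 and 0.027), and LMAN2, a related lectin, at -0.090, 0.054 and -0.015. SURF4, a receptor for soluble cargo, was below the control in all 3 of its probe sets at all 3 times, between -0.34 and -0.040.

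The TMED proteins, p24 cargo receptors found in both coats, divided. TMED2, with 5541 on the control array and 4833, 4885 and 4973 at 8, 16 and 24 h, was lower in all 3 probe sets at every time. TMED10, its partner in the p24 complex, stood at -0.12, -0.20 and -0.14, but its second measured probe set was at -0.064, 0.032 and 0.10. By contrast TMED9 had 2787 in control cells, with 2981, 3113 and 2441 after 8, 16 and 24 h, and TMED3 had 1399, 1595, 1484 and 1244. Both were thus above the control at 8 and 16 h and lowest at 24 h, and TMED9's second probe set had the same signs (0.023, 0.20 and -0.23). TMED3's second measured probe set stood at 0.11, -0.18 and 0.023. The signs of TMED3 at 8, 16 and 24 h turned, to -0.039, -0.0046 and 0.11, when the median of its probe sets was taken. TMED5 was at 0.058, -0.25 and 0.069, and its 5 measured probe sets lay between -0.57 and 0.37 at 16 h.

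KDELR1, a receptor that returns escaped chaperones to the ER, had 5128 in control cells, with 5029, 5594 and 5602 after 8, 16 and 24 h. Its second probe set gave a wider gap, with 1241, 1353, 1719 and 1723 and differences of 0.13, 0.47 and 0.47. Both readings were above the control at 16 and 24 h. KDELR3, of the same family, was at 155, 162, 158 and 153, which is little above the filter, and stood at 0.067, 0.029 and -0.022.

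The COG complex, 8 subunits that tether vesicles returning within the Golgi, had medians of -0.096, 0.040 and 0.097 over the 3 times, with 6, 3 and 3 genes below 0. COG5 had 843 in control cells, with 804, 429 and 793 after 8, 16 and 24 h. Its 16 h value was 1.96-fold below the control, the largest difference of any member at any time. A value this low was not shared by its other probe sets, which stood at -0.24 and -0.080 at 16 h. Among 12431 measured genes found in the RefSeq gene table, COG5 was also 1 of 62 whose 16 h value was under its neighbours at 8 and 24 h by 0.5 (log2) or more, and the 1 member among them. Its genomic span of 362549 bases is the longest of the 50 genes; 6 measured members spanned at least 100000 bases, and their median at 16 h was 0.015.

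The other COG genes lay closer to the control. COG7 was the highest at 8 and 16 h, at 310 in control cells, with 348, 425 and 369 after 8, 16 and 24 h. COG3 had 319, 260, 260 and 307 over these arrays, low at 8 and 16 h and near the control at 24 h. COG6 had 222, 206, 233 and 265 and was the highest at 24 h (0.25), while COG8, at 257, 243, 242 and 225, was the lowest (-0.19), though a COG8 probe set below the filter stood at 0.090 then. COG2 stood at 0.044, 0.14 and 0.23, while a dimmer COG2 probe set was at -0.39, -0.28 and 0.068. COG4 was at -0.26, 0.14 and 0.19. COG1 was at -0.19, 0.015 and 0.0022.

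The Golgi matrix genes included the 2 members that stood highest of all at 24 h. GORASP1, the stacking protein GRASP65, had 283 in control cells, with 306, 424 and 403 after 8, 16 and 24 h, differences of 0.11, 0.58 and 0.51. The 16 h value lay just under 1.5-fold. A second probe set, below the filter, stood at 0.14, -0.076 and -0.36. GOLGA2, the golgin GM130 that anchors GRASP65 to the Golgi membrane, had 507 in control cells, with 526, 620 and 661 after 8, 16 and 24 h. All 4 of its probe sets were above the control at all 3 times, by 0.29 to 0.43 at 16 h and 0.12 to 0.38 at 24 h.

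The other golgins were below the control at 8 h. GOLGA1 had 247 in control cells, with 203, 226 and 254 after 8, 16 and 24 h, and GOLGA3 had 344, 306, 300 and 312. GOLGA1 was the lowest matrix gene at 8 h (-0.28) and stood at 0.037 at 24 h, where its second probe set was at -0.19, and GOLGA3 stood at -0.17, -0.20 and -0.14. GOLGA5 was at -0.17, 0.041 and 0.10. GORASP2, the second stacking protein (GRASP55), stood at -0.15, -0.090 and -0.0056. Its other 2 measured probe sets stood at 0.28 and 0.10 at 24 h.

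**Figure D5:**
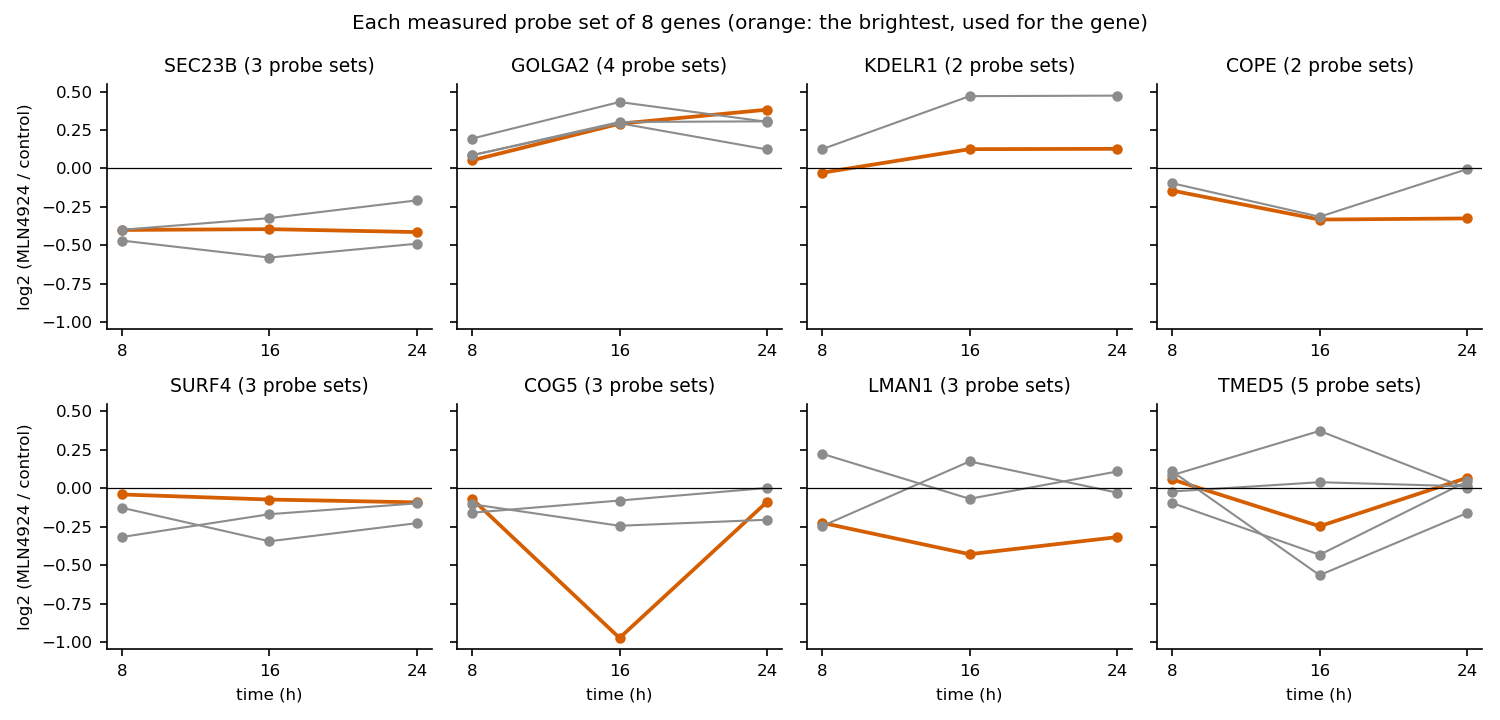
Each line is 1 measured probe set, with its log2 difference from the control array at 8, 16 and 24 h; orange marks the brightest, which stands for the gene. The 3 SEC23B lines lie below 0 and the 4 GOLGA2 lines above it at all times, whereas the COG5 value of -0.97 at 16 h appears in 1 of 3 lines.

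Probe sets of the same gene show how far a direction is shared within these 4 arrays. Their agreement leaves out the spread between cultures and between arrays. Of 26 members with at least 2 measured probe sets, 18 had the same sign in all of them at 8 h, 14 of these lower and 4 higher. Over the 5719 genes with at least 2, 54.9% had the same sign throughout and 27.3% were lower throughout. At 16 h 15 of 26 had the same sign in all, 11 of them lower, and at 24 h 15 of 26, 8 of them lower, against 60.4% and 61.2% of the 5719 genes with 1 sign. Lower throughout at these times were 29.3% and 30.1% of those genes.

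A list of 84 further genes of ER to Golgi and Golgi transport, none of them members, gave 81 measured genes. At 8 h 58 of 81 were below 0, against 48.3% of measured genes, with a median of -0.075, so these too were mostly below the control, by less than the members. At 16 h 38 of 81 were below 0, against 45.7%, with a median of 0.029, and at 24 h 38, against 47.4%, with 0.018. The counts at least 1.5-fold lower were 0, 4 and 0, against 1.12%, 2.73% and 2.31% of measured genes. Those higher were 0, 0 and 1, against 0.731%, 2.24% and 2.85%.

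The largest differences in that list were mostly at 16 h. GOLGA4, a golgin of the late Golgi, had 1514 in control cells, with 1301, 602 and 1395 after 8, 16 and 24 h. GOLGB1, the giantin tether, had 760, 617, 482 and 978, with a second probe set at -0.66 at 16 h as well. Like COG5, both were lowest on the 16 h array. SCFD1, which helps the SNAREs of the ER and Golgi to pair, was lower throughout, at -0.51, -0.71 and -0.41. GOLIM4, a Golgi membrane protein, stood at -0.65 at 16 h, and a second reading of opposite sign reached 0.23. BLZF1 stood at -0.53 and TRAPPC13, of a tethering complex, at -0.48 at 16 h. RAB30, a Golgi GTPase, was the 1 gene 1.5-fold higher, at 0.59 at 24 h with its 5 measured probe sets between 0.48 and 1.12, and VPS51, of another Golgi tether, stood at 0.46.

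Transcription factors known to act on secretory genes were read on the same arrays. XBP1, which drives the plasma cell secretory program, had 9978 in control cells, with 8787, 9848 and 10030 after 8, 16 and 24 h. CREB3L2, known in mouse cartilage for switching on SEC23A, had 3277, 2413, 3108 and 3469, with differences of -0.44, -0.076 and 0.082 and a second probe set at -0.27 at 8 h. Both were thus lowest at 8 h and near the control by 24 h. The 8 h array held the lowest value of 25.7% of measured genes, and a link between these factors and the members was not tested. ATF6, a sensor of ER stress, stood at 0.011, 0.10 and 0.20. TFE3, a regulator of Golgi and lysosome genes, had the largest difference of the 9 factors read, at 0.47, 0.65 and 0.63, but its second probe set stood at 0.18, -0.069 and 0.028. CREB3L4 was at -0.34, 0.18 and 0.11, ATF4 at -0.027, -0.28 and -0.28, ATF6B at 0.060, 0.29 and 0.19, CREB3L1 at 0.10 each time, and CREB3 between -0.0071 and 0.0055. These are mRNA levels, and XBP1 splicing and cleavage of the membrane-bound factors cannot be read from them.

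Promoters of the members were searched for elements that such factors are known to bind. RefSeq windows (GRCh38.p14) of 300 bases, from 250 before to 50 after a start, were matched by symbol for 44 of 50 members, with 60 windows in all. SEC24D, ARF4, COG7, TMED9, KDELR2 and USO1 were not matched. The letters TGACGTGG, the core of the unfolded protein response element, occurred on either strand in windows of 11 of 44 members (25%), against 1.20% of measured genes and 0.927% of all genes with a window. Counted by window, this was 12 of 60 (20%) against 0.729% of all 35116. The shorter GACGTG, which lies within it, occurred in 24 of 44 members (54.5%), against 12.9% of measured genes and 9.34% of all. The ER stress response element, CCAAT and CCACG with 9 bases between them, was found in 0 members and 0.0916% of all genes. The cAMP response element (TGACG followed by TCA) was in 0 members and 2.25% of all. CCAAT alone was in 18 of 44 (40.9%), against 43.1% of measured genes and 39.7% of all, and CCACG in 40 of 44 (90.9%), against 56.1% and 42.1%. A match describes letters and not a bound site, GC content was not matched, and CCACG overlaps the other strand of TGACGTGG.

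Shown here are 60-base stretches, 5′ to 3′ on the gene's own strand, that lie wholly before the start and hold the TGACGTGG core. Capitals mark the core, which reads CCACGTCA where it lies on the opposite strand. They come from SEC24A (chr5:134648580-134648639, + strand), COPB1 (chr11:14499826-14499885, - strand), COPB2 (chr3:139389810-139389869, - strand), GOLGA1 (chr9:124941233-124941292, - strand), GOLGA5 (chr14:92794100-92794159, + strand) and KDELR3 (chr22:38468024-38468083, + strand).
SEC24A: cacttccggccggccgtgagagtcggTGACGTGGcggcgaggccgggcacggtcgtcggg
COPB1: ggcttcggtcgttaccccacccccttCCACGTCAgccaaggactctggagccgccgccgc
COPB2: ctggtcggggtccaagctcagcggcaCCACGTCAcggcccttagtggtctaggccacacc
GOLGA1: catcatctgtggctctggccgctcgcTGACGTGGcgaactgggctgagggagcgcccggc
GOLGA5: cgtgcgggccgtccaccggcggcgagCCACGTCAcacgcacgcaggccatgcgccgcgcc
KDELR3: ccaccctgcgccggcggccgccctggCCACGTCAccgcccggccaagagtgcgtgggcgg

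In these stretches the core begins 48 bases before the start in COPB1 and 46 in KDELR3, 179 before it in SEC24A and GOLGA5, 183 in GOLGA1 and 196 in COPB2. ARF1, COPA, GBF1, SEC16A and SEC23A hold it within 16 bases of a start, on either side, and are not shown. Stretches are also shown for 4 members described above that lack the core: COPG1 (chr3:129249546-129249605, + strand) and GORASP1 (chr3:39107628-39107687, - strand) hold GACGTG, and SEC23B (chr20:18507815-18507874, + strand) and LMAN1 (chr18:59359296-59359355, - strand) hold CCAAT. Capitals mark these letters or their reverse complement.
COPG1: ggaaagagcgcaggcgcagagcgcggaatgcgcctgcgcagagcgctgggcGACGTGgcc
GORASP1: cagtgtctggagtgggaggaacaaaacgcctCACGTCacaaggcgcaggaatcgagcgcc
SEC23B: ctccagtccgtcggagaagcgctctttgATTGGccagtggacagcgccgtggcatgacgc
LMAN1: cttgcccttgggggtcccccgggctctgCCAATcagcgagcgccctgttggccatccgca

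Members with and without these letters were both mostly below the control at 8 h. Of measured members with a window, 10 of the 11 with TGACGTGG were below the control at 8 h (median -0.17), as were 24 of the 31 without it (median -0.090). At 16 h the medians were -0.034 with it and -0.090 without, and at 24 h 0.010 and -0.020. With GACGTG the medians were -0.16, -0.12 and -0.017 over 24 genes, and without it -0.086, 0.0059 and -0.0066 over 18. Below the control at 8 h were 20 of the 24 genes with GACGTG and 14 of the 18 without it.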

How the data were processed

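Biotin-labelled cRNA from total RNA of MM.1S cells was hybridised to Affymetrix arrays, per the labels' protocols, with 1 array for each of 4 groups. The values deposited by the authors are probe set intensities on a linear scale. The sources used here do not say how these were summarised, background-corrected or normalized. Of 54675 probe sets, 41097 were annotated with 1 gene, 1801 with several and 11777 were not listed; 41043 were matched to RefSeq by Entrez identifier, which changed 0 symbols. Values were raised to a floor at their 25th percentile (48.4) and log2-transformed here. The brightest probe set annotated with 1 gene stood for that gene. Genes were counted at 1.5-fold, beside the same count over all measured genes. By rule, the text gives array values for members 1.5-fold from control and for each role's highest and lowest members; further members were added after their values were seen. The members, lists and thresholds were chosen with earlier results of these data known. The calling step was run on simulated arrays with planted differences, which checks the calculation alone. The simulation held no spread between cultures, so it does not show how reliable a call from 1 array is. Protein identity between paralogues was not analysed here. Python 3.11.15, pandas 2.3.3 and numpy 2.4.6 were used. Alternatives varied the floor, filter, probe set rule, normalization and threshold.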

Additional observations from a re-analysis of the deposited data

Results flagged for a closer look

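COG4, a subunit of the tethering complex, stood below the control at 8 h (-0.26) and above it at 24 h (0.19), each by more than the SD between probe sets of a gene at that time. It has 1 probe set with this gene alone. Of all measured genes, 18.8% were lower by over 1 SD at 8 h, and 3083 of 12446 were higher by over 1 SD at 24 h. Below the control at 8 h and above it at 24 h, by any size, were 13 of 46 members and 18.7% of measured genes. Each COG4 value is 1 array against the same control array, and the difference between the times was not tested.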

How the results depend on the processing

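Of 165 values recomputed for the comparisons, 134 stayed within the spread or within 1.5 times the count. Of the 80 medians recomputed, 6 took the opposite sign, which were 5 of the related list at 16 h, 24 h and from 16 to 24 h, and the members' at 24 h (0.0011 without _x_at and _s_at probe sets). The member median at 8 h stayed below 0 in each of 8 alternatives, and moved beyond the limit in 3 of them: -0.098 when a gene was the median of its probe sets, -0.086 without _x_at and _s_at probe sets, which can match several transcripts, and -0.098 with arrays centred on measured genes. Centring shifts all genes of an array alike, and it moved the 8 h median over all measured genes too, from 0.0071 to 0.032. With probe set medians the members' 16 h median was -0.031, COG5 stood at -0.24 at 16 h, and 0 members were 1.5-fold apart in either step between times. Without _x_at and _s_at probe sets, which leaves 34 members, 19 were below 0 at 16 h, 17 at 24 h and 10 from 16 to 24 h, 0 were 1.5-fold apart at 16 h or in either step, and the median from 8 to 16 h was 0.094. Quantile normalization gave 2 genes 1.5-fold apart at 16 h and step medians of 0.094 and 0.030, and centring gave 0.041 from 8 to 16 h. For that step, centring moved the median over all measured genes from 0.015 to -0.012. Counts over all measured genes are not given here for these alternatives. At 2-fold, 0 members were apart in any of the 5 comparisons, and few genes were. Of all 12446 measured genes, 16, 48 and 64 were 2-fold higher and 15, 36 and 24 lower at 8, 16 and 24 h. From 8 to 16 h 27 were higher and 20 lower, and from 16 to 24 h 5 were higher and 0 lower. The related list's median at 16 h changed sign, to -0.041 with probe set medians and -0.043 without _x_at and _s_at probe sets. Its other medians of opposite sign or beyond the limit were -0.057 (8 h) and 0.047 (16 to 24 h) with probe set medians, -0.024 (24 h) and 0.047 (16 to 24 h) without those probe sets, 0.050 (8 to 16 h) and -0.0027 (16 to 24 h) with the filter at the 75th percentile, -0.012 (16 to 24 h) with quantile normalization, and -0.051 (8 h) and 0.0033 (8 to 16 h) with centring. Of single genes, LMAN1 stood at 0.22, -0.068 and 0.11 over the 3 times with probe set medians, TMED3 at -0.039 at 8 h and 0.11 at 24 h, COG8 at 0.080 at 8 h and 0.22 at 16 h, SEC24D at -0.77 at 16 h and -0.47 at 24 h, SEC23B at -0.21 at 24 h, and GORASP1 at 0.25 at 16 h and 0.073 at 24 h. Without _x_at and _s_at probe sets GORASP1 stood at -0.076 and -0.36 at these times and COG5 at -0.080 at 16 h, while COG3 was left with a probe set at the floor. The causes were not tested. No paired analysis was possible because each group is 1 array. Dim probe sets, close to the filter of 93.9, limit COPG2, KDELR3 and the second readings of COPA, LMAN1 and GORASP1.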
